A study of Mus musculus with 27 samples.

Results

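The effect of TRi-1 on the aged mouse ovary was read from 8 of the 27 libraries of the series: 4 libraries of aged mice given TRi-1 and 4 of aged untreated mice, all from experiment 1. These 8 were taken by their labels (mouse, treatment and experiment) and by no measured value. The 5 young untreated ovaries of the same experiment entered the model fit and are given beside them. Experiment 2, with 4 auranofin-treated aged, 5 aged untreated and 5 young untreated ovaries, supplied the comparison with auranofin and the genes that differ with age, and entered 1 alternative fit. Ovary was the labelled tissue in every group, RNA was polyA RNA, and libraries were made with a Lexogen QuantSeq kit, which reads a short tag near the 3′ end of each transcript. The labels give an age class (young or aged), a treatment and a replicate number. They give no strain, age in weeks, dose, route or length of treatment, and do not say what the untreated mice received. Nothing says that the replicates are separate animals, so p-values measure the spread between these samples, which may be partly technical.

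Thioredoxin reductase 1, encoded by Txnrd1, is a cytosolic selenoprotein that uses NADPH to keep thioredoxin reduced, and reduced thioredoxin in turn serves ribonucleotide reductase, peroxiredoxins and redox-sensitive transcription factors. TRi-1 is a small molecule developed as a selective inhibitor of this enzyme, and auranofin is a gold compound that inhibits thioredoxin reductases and reacts with other thiols and selenols as well. Electrophiles and loss of thioredoxin reductase activity are known to release the transcription factor NRF2 from KEAP1, after which genes with an antioxidant response element such as Txnrd1, Srxn1, Hmox1, Nqo1 and Gclm are transcribed. The ageing ovary loses its follicles and is known for gains in fibrous matrix, macrophages, lymphocytes and senescence-associated inflammatory signals.

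Total counts ran from 9183605 to 10784379 in TRi-1 libraries, from 9791693 to 14814381 in aged untreated libraries and from 6460903 to 10077161 in young libraries. Levels are given in CPM, counts scaled to a common library size with factors from the trimmed mean of M-values. Theca and stromal markers summed to 5614 to 6773 CPM under TRi-1 and to 5351 to 7775 CPM in aged untreated ovaries. That list includes fibrillar collagen genes such as Col1a1, so its level does not check the ovarian label. Oocyte markers were low in both aged groups: 32 oocyte genes summed to 16.2 to 27.5 CPM under TRi-1 and 12.1 to 22.5 CPM in aged untreated ovaries, against 343 to 634 CPM in young ovaries. Granulosa and cumulus cell markers summed to 2137 CPM in TRi-1 replicate 4 and to 540.2 to 672 CPM in the other TRi-1 ovaries, and to 300.3 to 530.2 CPM in aged untreated ovaries, against 1064 to 1995 CPM in young ovaries. Figla and Nlrp9a in oocytes and Amh in granulosa cells had no count in any of the 8 aged libraries. Haemoglobin genes took 4.5% to 11.95% of counts under TRi-1 and 9.52% to 22.7% in aged untreated ovaries. From here on, fewer cells of a type and less RNA per cell cannot be told apart, since the libraries come from unsorted tissue. Earlier results had marked TRi-1 replicate 1, aged untreated replicate 3 and young replicate 5 as libraries that stand apart, and TRi-1 replicate 4 was added to these after the data were seen. Values without them are given beside the results they moved most.

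Few genes were called under TRi-1 by edgeR's test. Extracellular matrix and fibroblast genes (Fn1, Mfap5, Pi16), the matrix-related growth factor Bmp4, the triglyceride enzyme Dgat2, the clock repressor Nr1d1 and the small chaperone Hspb8 were lower. Genes for RNA-binding and chromatin proteins (Ewsr1, Larp4, Smchd1), the T-box factor Tbx3 and the kinase Fyn were higher. Of 16028 genes tested with edgeR's quasi-likelihood test over the 13 libraries of experiment 1, 28 (0.175%) were higher and 39 (0.243%) lower in TRi-1 than in aged untreated ovaries at a Benjamini-Hochberg adjusted p of at most 0.05, 67 (0.418%) in all. At an unadjusted p under 0.05, 1253 genes (7.82%) were higher and 1397 (8.72%) lower. Counts in the gene lists below are to be read beside these shares and the 0.418% called. The groups of 4 did not overlap in 1479 genes (9.23%): the TRi-1 libraries lay wholly above the aged untreated ones in 669 genes (4.17%) and wholly below them in 810 (5.05%). All 39 genes that fell are annotated as protein-coding, and so are 22 of the 28 that rose.

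The calls depended on which libraries were in the fit. Without TRi-1 replicate 1, without TRi-1 replicate 4 or without aged untreated replicate 3, edgeR called 0 genes, with 2348, 2115 and 2266 genes at an unadjusted p under 0.05. In each of these fits all 67 genes kept their sign and had an unadjusted p under 0.05 in edgeR's test. The smallest adjusted p of that test was 0.073, 0.082 and 0.0577, in the same order. With only the 8 aged libraries in the fit edgeR also called 0 genes (2317 at an unadjusted p under 0.05), while DESeq2 on the 13 libraries called 280 higher and 307 lower. Each other library moved the count too: calls in both directions came to 12 and 22 without TRi-1 replicates 2 and 3, to 32, 164 and 22 without aged untreated replicates 1, 2 and 4, and to 22, 17, 135, 36 and 25 without young replicates 1 to 5.

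**Figure D1:**
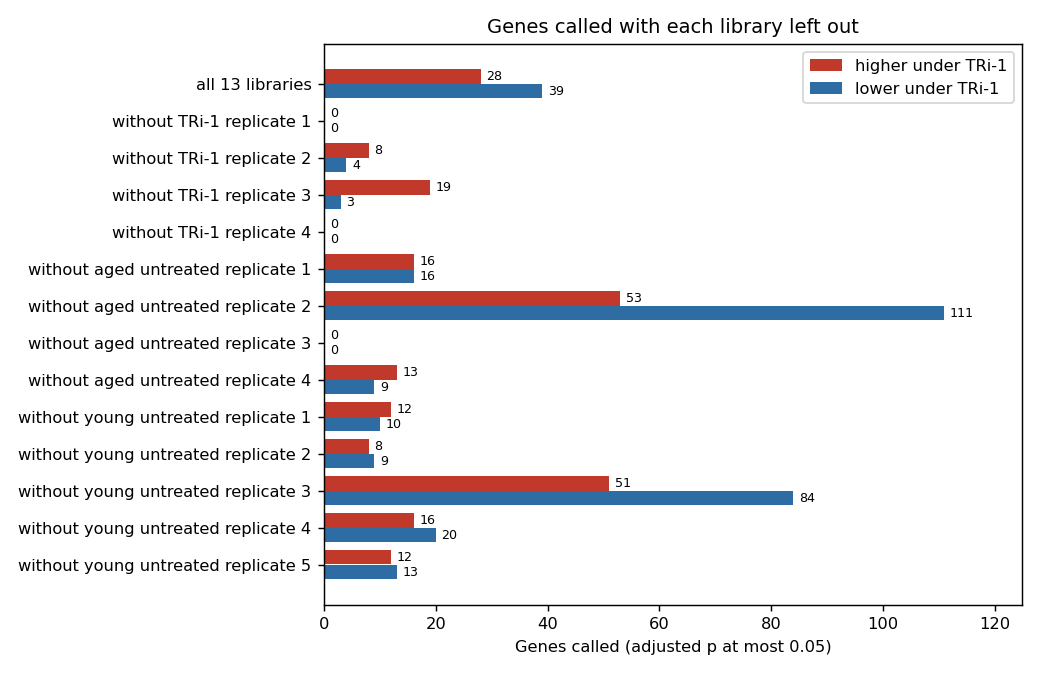
Bars give the number of genes called higher (red) and lower (blue) in TRi-1 than in aged untreated ovaries by edgeR, with all 13 libraries and with each library left out in turn. The counts fall to 0 without TRi-1 replicate 1, TRi-1 replicate 4 or aged untreated replicate 3, against 28 higher and 39 lower with all libraries.

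Among rises of genes with established names and at least 5 CPM, the largest was that of Ppp2r2c (ENSMUSG00000029120, chr5:36868513-36955078 in GRCm38 with GENCODE M21), a regulatory subunit of protein phosphatase 2A. It had 9.34, 11.3, 5.84 and 10 CPM in TRi-1 replicates 1 to 4, against 0.887, 2.07, 1.52 and 2.96 CPM in aged untreated replicates 1 to 4. Every TRi-1 ovary was above every untreated aged ovary, and the log2 fold change was 2.27 ± 0.40 (SE; edgeR adjusted p = 0.0297). Young ovaries averaged 10.5 ± 3.77 CPM (SD, n = 5). The 10 largest rises and 10 largest falls were picked among called genes whose groups did not overlap, so that separation is no added result. Tbx3 (chr5:119670669-119684724), a T-box repressor of transcription, had 11.8, 9.67, 12.4 and 16.6 CPM under TRi-1 and 2.66, 6.12, 3.47 and 3.82 CPM in aged untreated ovaries. The groups were again apart, with a log2 fold change of 1.65 ± 0.33 (edgeR adjusted p = 0.0421), and young ovaries averaged 16.6 ± 6.08 CPM. The zinc finger gene Zfp131 (chr13:119765187-119790889) had 21.5, 21.9, 21.9 and 37.2 CPM under TRi-1 and 6.54, 11.01, 9.14 and 9.502 CPM in aged untreated ovaries, a log2 fold change of 1.5 ± 0.26 (edgeR adjusted p = 0.0295). TRi-1 replicate 4 was well above the other 3, which lay within 1 CPM of each other.

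Smchd1, Larp4 and Ewsr1 rose as well, and are grouped here by function and not by size. Smchd1 (chr17:71344489-71475343), a chromatin protein known for silencing of the inactive X chromosome, had 55.2, 43.4, 41.8 and 65.8 CPM under TRi-1 and 16.3, 25.6, 18.02 and 21.96 CPM in aged untreated ovaries. Its log2 fold change was 1.33 ± 0.21 (edgeR adjusted p = 0.0258), with no overlap between the groups, and young ovaries averaged 55.01 ± 9.904 CPM. Larp4 (chr15:99970065-100016358), which binds poly(A) tails and stabilises mRNA, had 91.5, 71.4, 80.7 and 104 CPM under TRi-1 and 32.9, 35.2, 21.5 and 50.5 CPM in aged untreated ovaries, a log2 fold change of 1.31 ± 0.24 (edgeR adjusted p = 0.0298). Ewsr1 (chr11:5069689-5099266), an RNA-binding protein of the FET family, had 25.4, 28.3, 24.1 and 34.5 CPM under TRi-1 and 9.42, 17.4, 12.4 and 9.27 CPM in aged untreated ovaries, a log2 fold change of 1.21 ± 0.23 (edgeR adjusted p = 0.0379). Each of the 3 genes was higher in 4 of 4 TRi-1 libraries than in any untreated aged library. Further genes of RNA and transcription machinery that passed the same test included Eif5b (0.91, translation initiation), Luc7l3 (0.94, splicing), Taf3 (1.15, a TFIID subunit) and Med13l (0.95, the Mediator kinase module), all as log2 fold changes. These 4 were named after their values were seen, and no list of such genes was drawn up or tested.

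Fyn, Usp25 and Rwdd1 were the remaining named rises of known protein-coding genes. Fyn (chr10:39368855-39565381), a Src family tyrosine kinase expressed by lymphocytes and many other cells, had 19.8, 14.04, 8.89 and 16.8 CPM under TRi-1 and 5.54, 7.53, 4.31 and 6.15 CPM in aged untreated ovaries, and its log2 fold change was 1.34 ± 0.27 (edgeR adjusted p = 0.0432). The deubiquitinase gene Usp25 (chr16:77013706-77116780) had 42.9, 22.9, 30.9 and 22.9 CPM under TRi-1 and 6.43, 14.3, 9.64 and 12.1 CPM in aged untreated ovaries, a log2 fold change of 1.49 ± 0.30 (edgeR adjusted p = 0.0421). Rwdd1 (chr10:33996555-34019624) had 34.3, 35.98, 31.9 and 40.4 CPM under TRi-1 and 9.53, 16.9, 18.4 and 13.5 CPM in aged untreated ovaries, a log2 fold change of 1.29 ± 0.22 (edgeR adjusted p = 0.0295). None of the 3 overlapped between the groups. The proteasome subunit gene Psmb3 was the 1 called gene of 67 that did: it had 225, 255, 104 and 275 CPM under TRi-1 and 99.8, 70.4, 78.3 and 110.1 CPM in aged untreated ovaries (log2 fold change 1.26 ± 0.26, edgeR adjusted p = 0.0467). TRi-1 replicate 3 was the low library, and Psmb3 was the 1 called gene of 31 tested proteasome subunit genes, where 0.418% of all genes were called. The list median was -0.12, and 0.01 without aged untreated replicate 3.

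Among the rises were 4 pseudogenes, against 0 among the falls, and their values are uncertain because reads of such copies can be shared with the parent gene. Amd-ps3, a processed copy of the S-adenosylmethionine decarboxylase gene, had 90.05, 65.7, 85.8 and 109 CPM under TRi-1 and 40.8, 36.2, 17.4 and 15.03 CPM in aged untreated ovaries (log2 fold change 1.68 ± 0.29, edgeR adjusted p = 0.0297). Gm6136 had 106, 92.9, 20.5 and 144 CPM under TRi-1, against 0.554, 5.65, 1.27 and 6.23 CPM in aged untreated ovaries and 694 ± 350.2 CPM in young ovaries, so both aged groups were far below the young one. Rpl18-ps2 and Gm8995 were the other two, with log2 fold changes of 5.49 and 1.37; these 2 and Gm6136 were named after their values were seen. Pseudogenes together took 1.85% to 2.32% of counts under TRi-1 and 1.06% to 2.00% in aged untreated ovaries. The part of that share in these calls was not tested.

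**Figure D2:**
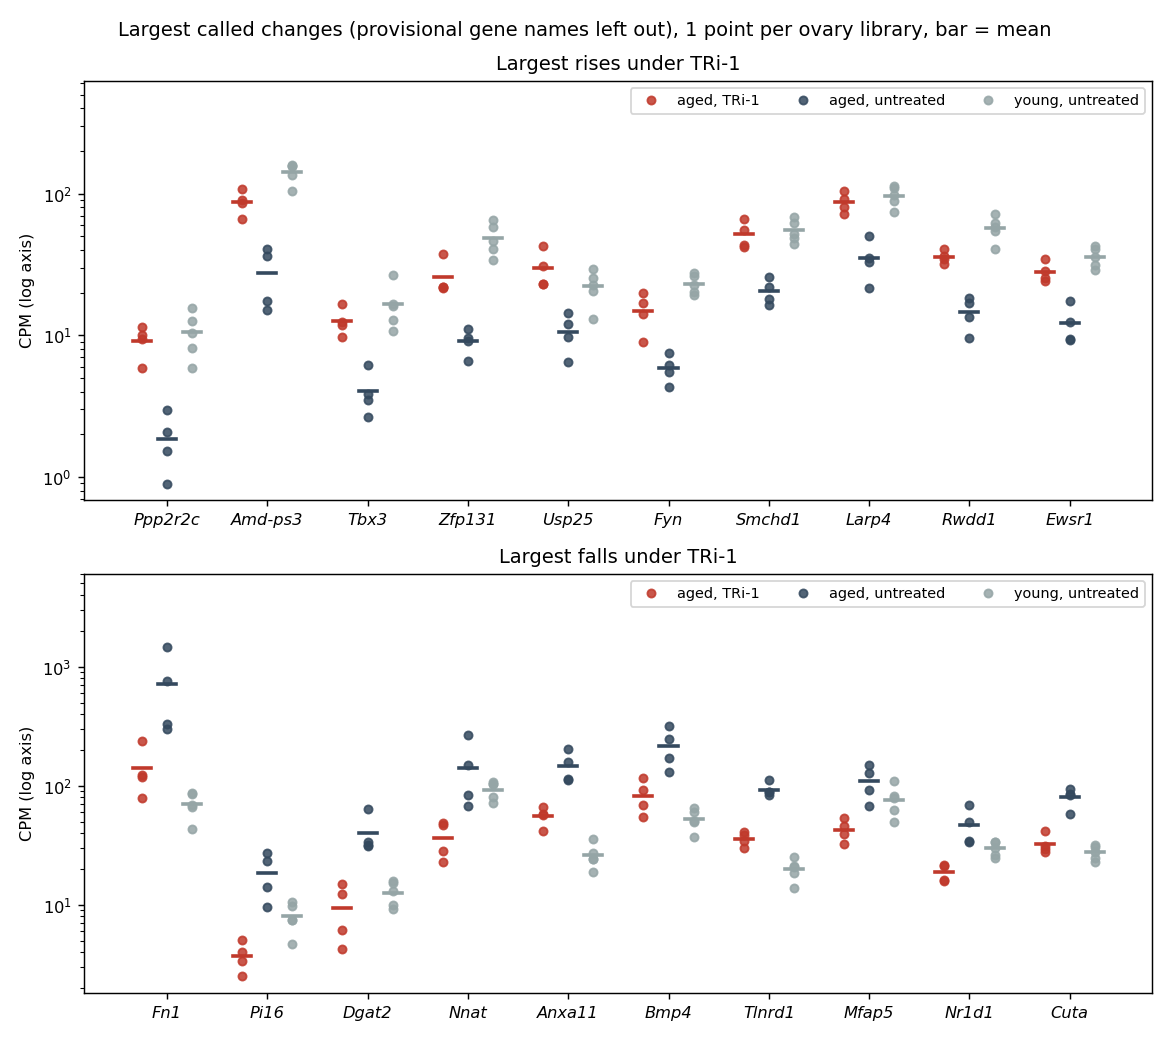
Level in CPM, on a log axis, in each TRi-1, aged untreated and young untreated ovary of experiment 1 (points), with group means (bars). Shown are the 10 largest rises and 10 largest falls among called genes with at least 5 CPM and no overlap between the groups. Genes with provisional names such as Gm6136 were left out. By the condition of no overlap, every TRi-1 library lies above every aged untreated library for the rises and below every one for the falls. An example is Fn1, with 79.1 to 239 CPM against 302 to 1462 CPM.

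The largest fall was that of Fn1 (ENSMUSG00000026193, chr1:71585520-71653200), which encodes fibronectin, the glycoprotein that cells assemble into the provisional matrix. Fn1 had 79.1, 239, 118 and 122 CPM in TRi-1 replicates 1 to 4, against 329.7, 302, 1462 and 765 CPM in aged untreated replicates 1 to 4. The lowest untreated aged ovary was above the highest TRi-1 ovary, and aged untreated replicate 3 was the highest of all. Means were 139.6 ± 68.9 CPM under TRi-1 and 715 ± 541 CPM in aged untreated ovaries (SD, n = 4 each), with 69.9 ± 17.6 CPM in young ovaries. The log2 fold change was -2.36 ± 0.46 (edgeR adjusted p = 0.0393). Without aged untreated replicate 3 it was -1.69, with an edgeR adjusted p of 0.093. Pi16 (chr17:29317680-29330593), a peptidase inhibitor gene known as a marker of adventitial fibroblasts, had 2.504, 5.04, 3.39 and 4.02 CPM under TRi-1 and 27.04, 9.51, 14.2 and 23.1 CPM in aged untreated ovaries. Its log2 fold change of -2.3 ± 0.37 (edgeR adjusted p = 0.0258) left the TRi-1 ovaries below the young mean of 8.01 ± 2.32 CPM. Mfap5 (chr6:122505845-122529290), a microfibril protein that accompanies elastic fibres, had 39.4, 45.6, 32.3 and 53.6 CPM under TRi-1 and 151, 68.2, 92.8 and 127 CPM in aged untreated ovaries, a log2 fold change of -1.36 ± 0.27 (edgeR adjusted p = 0.0421).

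Bmp4 (chr14:46383520-46390669), a ligand of the bone morphogenetic protein family that theca and stromal cells make, had 68.7, 54.6, 116 and 91.4 CPM under TRi-1 and 248, 171, 129 and 317 CPM in aged untreated ovaries. The gap between the groups was narrow, 116 CPM in TRi-1 replicate 3 against 129 CPM in aged untreated replicate 3, and the log2 fold change was -1.39 ± 0.29 (edgeR adjusted p = 0.0467). It was the 1 called gene of 24 tested ligands and antagonists of the TGF-beta and BMP pathways, whose median log2 fold change was 0.08, with 14 above 0 and 10 below, and 0.21 without TRi-1 replicate 1, aged untreated replicate 3 and young replicate 5. Over all genes tested, 0.418% were called and the median was -0.003. Dgat2 (chr7:99153658-99182719) encodes the enzyme of the last step of triglyceride synthesis and had 12.4, 15.05, 4.23 and 6.18 CPM under TRi-1 and 33.7, 31.5, 63.8 and 31.1 CPM in aged untreated ovaries, a log2 fold change of -2.08 ± 0.37 (edgeR adjusted p = 0.0298). Without aged untreated replicate 3, the highest library, the log2 fold change of Dgat2 was -1.72 and edgeR's adjusted p 0.0792. The imprinted gene Nnat (chr2:157560078-157562522) had 46.6, 22.9, 48.9 and 28.4 CPM under TRi-1 and 151, 68.2, 265 and 83.9 CPM in aged untreated ovaries, and its log2 fold change of -1.95 ± 0.37 (edgeR adjusted p = 0.0369) became -1.41 without aged untreated replicate 3. Anxa11 (chr14:25842156-25886804), a calcium-dependent phospholipid-binding annexin, had 65.8, 58.4, 57.1 and 41.6 CPM under TRi-1 and 203, 112, 114 and 157 CPM in aged untreated ovaries (log2 fold change -1.4 ± 0.24, edgeR adjusted p = 0.0295). Both aged groups stood above the young ovaries for Anxa11, which averaged 26.1 ± 6.18 CPM.

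Tlnrd1 (chr7:83879873-83884305), an actin-bundling protein related to the rod of talin, had the smallest standard error of the named falls. It had 34.6, 29.9, 38.8 and 40.7 CPM under TRi-1 and 88, 88.96, 83.7 and 111 CPM in aged untreated ovaries, and the log2 fold change was -1.37 ± 0.19 (edgeR adjusted p = 0.0258). Cuta (chr17:26933819-26939569) had 41.5, 31.02, 29.4 and 27.5 CPM under TRi-1 and 85.6, 57.5, 93.8 and 84.1 CPM in aged untreated ovaries, a log2 fold change of -1.31 ± 0.20 (edgeR adjusted p = 0.0258). Neither gene overlapped between the groups, and young ovaries averaged 19.99 ± 4.18 CPM for Tlnrd1 and 27.6 ± 3.94 CPM for Cuta. Nr1d1 (chr11:98767932-98775333), the haem-binding clock repressor REV-ERB alpha, had 21.2, 21.7, 16.3 and 15.9 CPM under TRi-1 and 69.5, 33.4, 34.2 and 49.7 CPM in aged untreated ovaries (log2 fold change -1.31 ± 0.24, edgeR adjusted p = 0.0314). It was the 1 called gene of 19 tested circadian clock genes, whose median was 0.05, where 0.418% of all genes were called. Its paralogue Nr1d2 had 134, 114, 153 and 139 CPM under TRi-1 and 267, 186, 113 and 254 CPM in aged untreated ovaries, overlapping groups with an edgeR adjusted p of 0.198. The activator Arntl (BMAL1), which drives Nr1d1, had 2.12, 2.02, 5.76 and 1.57 CPM under TRi-1 and 0.776, 1.13, 1.1 and 0.234 CPM in aged untreated ovaries (edgeR adjusted p = 0.284). The labels give no hour of collection, so the time of day cannot be told apart from treatment for these genes.

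The other falls included signalling, chromatin and membrane trafficking genes, all named after their values were seen. Log2 fold changes were -1.31 for the forkhead factor Foxp4, -1.27 for the histone H3 lysine methyltransferase Ehmt2 (G9a) and -1.18 for the elongation factor Supt6. They were -1.18 for the small GTPase Rhoc, -1.3 for the scaffold Slc9a3r2, -1.13 and -0.8 for the ADP-ribosylation factors Arf5 and Arf3, -1.14 for Ergic3 and -1.12 for Yipf3 of the early secretory pathway. Mitochondrial genes among the falls were Ndufaf8 (-1.07), an assembly factor of complex I, Chchd2 (-0.89) and the adenylate kinase Ak3 (-0.91), while edgeR called 0 of 48 respiratory chain and ATP synthase genes (3 higher and 6 lower at an unadjusted p under 0.05). Phlda3, a p53 target that restrains AKT, fell with a log2 fold change of -1.26 ± 0.26 (edgeR adjusted p = 0.0461). It had 8.28, 14.2, 12.8 and 11.9 CPM under TRi-1 and 34.2, 23.6, 22.1 and 33.2 CPM in aged untreated ovaries. It was the 1 called gene of 28 p53 target and cell cycle arrest genes, whose median was 0.01, where 0.418% of all genes were called.

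Most matrix genes had a log2 fold change below 0, though few passed the test. Of 37 genes for collagens and fibrillar matrix, 2 passed the adjusted threshold, Fn1 and Mfap5, both lower, and 35 did not. Log2 fold changes were below 0 for 31 of the 37 and above 0 for 6, against 50.3% below 0 over all genes tested. At an unadjusted p under 0.05, 18 of the 37 were lower and 0 higher, where the background was 8.72% lower. The median log2 fold change was -0.64, against -0.003 over all genes, and it stayed between -0.80 and -0.45 over all alternatives run, at -0.47 without aged untreated replicate 3 and -0.65 without TRi-1 replicate 4. Mean log2 CPM of the list was 4.98, 5.46, 5.23 and 5.43 in TRi-1 replicates 1 to 4, against 5.67, 5.50, 5.91 and 6.20 in aged untreated replicates 1 to 4. The summed level of the list overlapped between the groups, at 2906 to 5256 CPM under TRi-1 and 4341 to 8618 CPM in aged untreated ovaries. Every TRi-1 library lay below every untreated aged library for the mean log2 CPM, by a narrow margin at TRi-1 replicate 2 and aged untreated replicate 2. Endothelial markers moved with it: 15 of 20 had a log2 fold change below 0, the median was -0.47, and their mean log2 CPM was 4.10 to 4.43 in TRi-1 ovaries and 4.47 to 4.85 in aged untreated ovaries. Their part in the matrix values was not tested. Theca and stromal markers had a median of 0.08 (-0.06 without TRi-1 replicate 4 and aged untreated replicate 3) with 0 of 19 called by edgeR (1 higher and 3 lower at an unadjusted p under 0.05).

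The matrix genes that were not called differed in size and in overlap. Col4a2, a basement membrane collagen chain, had 67.3, 82.5, 82.5 and 70.8 CPM under TRi-1 and 141, 99.4, 154 and 184 CPM in aged untreated ovaries (log2 fold change -0.93 ± 0.22, edgeR adjusted p = 0.065). The groups did not overlap, yet the gene did not pass the adjusted threshold. Mfap4, another microfibril protein, had 5.297, 14.3, 12.02 and 14.5 CPM under TRi-1 and 28.04, 20.99, 23.9 and 32.5 CPM in aged untreated ovaries (-1.19 ± 0.30, adjusted p = 0.0748). Fibulin-1, encoded by Fbln1, had 95.2, 98.5, 90.9 and 72.2 CPM under TRi-1 and 215, 106, 149.6 and 163 CPM in aged untreated ovaries (-0.83 ± 0.21, adjusted p = 0.0742). Log2 fold changes were -1.02 ± 0.27 for fibrillin-1 (Fbn1), -1.17 ± 0.44 for elastin (Eln), -0.95 ± 0.26 for the microfibrillar collagen gene Col6a1 and -0.81 ± 0.26 for the collagen-binding protein Sparc. The genes of the main fibrillar collagens overlapped between the groups. Col1a1 had 138, 449, 239 and 359 CPM under TRi-1 and 331, 247, 579.8 and 634 CPM in aged untreated ovaries (-0.6 ± 0.35, adjusted p = 0.409), and Col3a1 had 159.8, 382, 237 and 318 CPM under TRi-1 and 244, 197, 452 and 465 CPM in aged untreated ovaries (-0.31 ± 0.30, adjusted p = 0.661). Differences between kinds of matrix gene were not tested. Of 24 matrix proteases and inhibitors, edgeR called 0 (0 higher and 3 lower at an unadjusted p under 0.05), 19 were below 0 and the median was -0.35. It was -0.22 without aged untreated replicate 3 and -0.18 without that library and TRi-1 replicate 4. Timp1, the inhibitor of matrix metalloproteinases, was the nearest to the threshold, with 43.8, 39.4, 68.1 and 55.8 CPM under TRi-1 and 80.4, 114, 302 and 103 CPM in aged untreated ovaries (-1.53 ± 0.37, adjusted p = 0.0656).

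**Figure D3:**
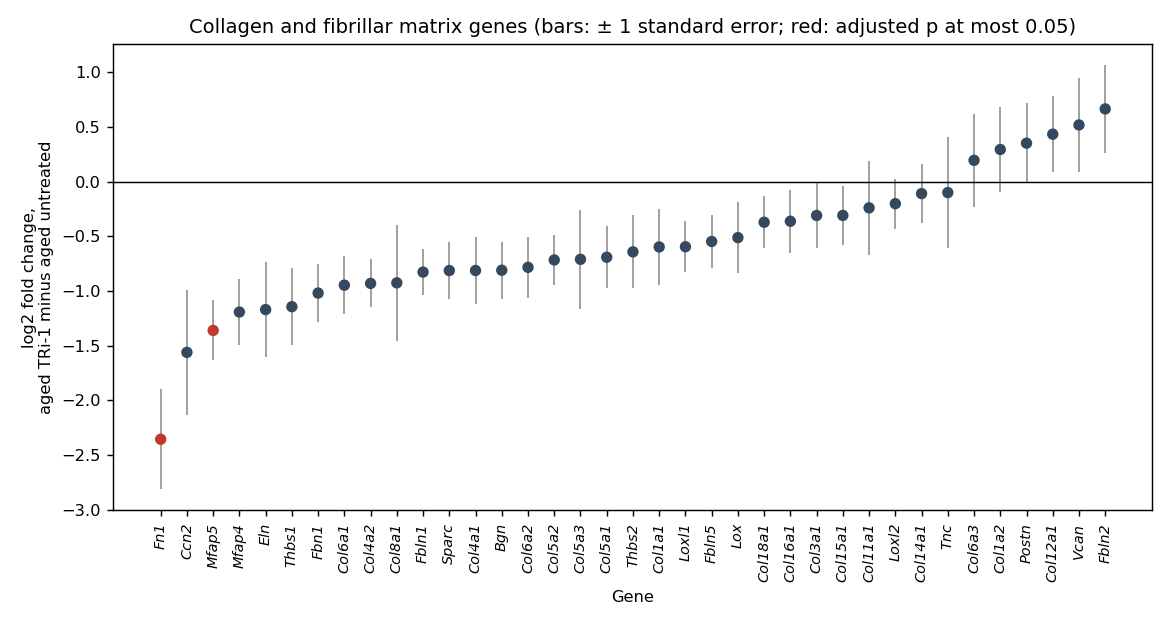
Log2 fold change of each of the 37 collagen and fibrillar matrix genes, TRi-1 over aged untreated (points), with 1 standard error on either side (lines). Points lie below 0 for 31 of the 37, and the 2 genes called by edgeR, Fn1 and Mfap5, are in red.

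Neither the gene of the target enzyme nor any NRF2 target gene was called under TRi-1. Txnrd1 (ENSMUSG00000020250, chr10:82833951-82897712) had 77.3, 24.04, 51.2 and 35.98 CPM in TRi-1 replicates 1 to 4, against 19.4, 43.8, 44.8 and 34.04 CPM in aged untreated replicates 1 to 4. The groups overlapped, and the log2 fold change was 0.41 ± 0.32 (edgeR adjusted p = 0.571). TRi-1 acts on the protein, so its mRNA does not check the label. Srxn1, which reduces over-oxidised peroxiredoxins, had 104, 29.1, 96 and 40 CPM under TRi-1 and 55.8, 64.8, 103 and 88.3 CPM in aged untreated ovaries (-0.21 ± 0.34, edgeR adjusted p = 0.809). Hmox1, the haem-degrading enzyme, had 56.7, 30.2, 85.9 and 25.8 CPM under TRi-1 and 96.1, 64.95, 65.2 and 96.3 CPM in aged untreated ovaries (-0.7 ± 0.37, edgeR adjusted p = 0.36). In both, TRi-1 replicates 1 and 3 were the higher treated libraries and replicates 2 and 4 the lower ones. The quinone reductase Nqo1 had 6.84, 2.44, 7.196 and 5.098 CPM under TRi-1 and 1.33, 2.35, 2.28 and 2.73 CPM in aged untreated ovaries, the largest positive value of the fixed redox genes, 1.3 ± 0.47, but not past the threshold (edgeR adjusted p = 0.188). For the 2 subunits of glutamate-cysteine ligase, which limits glutathione synthesis, log2 fold changes were 0.73 ± 0.26 for Gclc (edgeR adjusted p = 0.182) and 0.23 ± 0.31 for Gclm (adjusted p = 0.774). Thioredoxin itself (Txn1) had a log2 fold change of -0.18 ± 0.43, the cystine transporter gene Slc7a11 -0.7 ± 0.54 and Osgin1 0.32 ± 0.48, none of them called.

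As lists, 0 of 37 NRF2 target genes, 0 of 19 thioredoxin system genes, 0 of 28 glutathione genes and 0 of 23 selenoprotein genes were called. Over all genes, edgeR's test called 0.418%, so a count of 0 in lists of this size says little. At an unadjusted p under 0.05, 6 NRF2 targets were higher and 3 lower, and 1 thioredoxin system gene was higher and 4 lower. At the same threshold, 3 glutathione genes were higher and 2 lower, and 2 selenoprotein genes were higher and 6 lower. The shares over all genes were 7.82% higher and 8.72% lower. Medians were -0.02 for NRF2 targets, -0.21 for the thioredoxin system, -0.00 for glutathione genes and -0.20 for selenoproteins. Without aged untreated replicate 3 they were 0.15 for NRF2 targets, -0.09 for the thioredoxin system, 0.08 for glutathione genes and -0.06 for selenoproteins. Without that library and TRi-1 replicate 4 they were 0.22 for NRF2 targets and -0.03 for the thioredoxin system. The member closest to the threshold was Prdx5, a peroxiredoxin, which had 169, 159.97, 109 and 130.4 CPM under TRi-1 and 269, 206, 363 and 239 CPM in aged untreated ovaries without overlap (-0.92 ± 0.20, adjusted p = 0.0515). Ferritin light chain (Ftl1) also lay lower in 4 of 4 TRi-1 libraries, 2854, 2894, 2883 and 2108 CPM against 4296, 3458, 5915 and 4281 CPM in aged untreated ovaries (-0.74 ± 0.19, adjusted p = 0.0748). The mitochondrial and the testis-enriched reductase genes had log2 fold changes of -0.25 ± 0.31 for Txnrd2 and -0.2 ± 0.35 for Txnrd3.

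The promoter windows printed here belong to the 2 genes whose response differed most clearly between inhibitors and have an entry, and to the target gene. Each covers 250 bases before to 50 bases after the annotated start (RefSeq, GRCm38.p6), written 5′ to 3′ on the gene's strand. Capitals mark the core of the antioxidant response element, TGACNNNGC or its reverse complement, in Srxn1 (chr2:152105274-152105573, plus strand) and in 1 of 3 windows of Txnrd1 (chr10:82858956-82859255, plus strand), and the heat shock element core GAANNTTC in Hspb8 (chr5:116422815-116423114, minus strand).
Srxn1: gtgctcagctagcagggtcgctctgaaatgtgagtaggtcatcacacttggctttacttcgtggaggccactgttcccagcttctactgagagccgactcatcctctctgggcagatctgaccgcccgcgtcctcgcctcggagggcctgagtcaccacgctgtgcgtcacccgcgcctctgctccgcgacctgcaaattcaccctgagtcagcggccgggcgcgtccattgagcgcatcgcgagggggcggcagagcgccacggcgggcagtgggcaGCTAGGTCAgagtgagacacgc
Txnrd1: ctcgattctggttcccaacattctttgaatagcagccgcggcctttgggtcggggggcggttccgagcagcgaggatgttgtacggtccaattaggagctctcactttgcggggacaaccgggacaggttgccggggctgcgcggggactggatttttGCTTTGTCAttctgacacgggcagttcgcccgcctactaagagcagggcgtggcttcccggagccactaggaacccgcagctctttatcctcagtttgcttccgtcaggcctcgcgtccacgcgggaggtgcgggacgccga
Hspb8: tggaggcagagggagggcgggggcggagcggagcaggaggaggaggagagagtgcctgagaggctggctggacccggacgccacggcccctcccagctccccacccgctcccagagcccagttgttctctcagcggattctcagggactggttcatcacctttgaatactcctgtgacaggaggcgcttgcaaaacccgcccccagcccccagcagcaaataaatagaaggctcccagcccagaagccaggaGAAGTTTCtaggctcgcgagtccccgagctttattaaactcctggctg
The match in Srxn1 began 29 bases after the start, that in Txnrd1 92 bases before it, and that in Hspb8 3 bases after it. On both strands, TGACNNNGC was found in 12.4% of 32851 windows and GAANNTTC in 7.86%. Among genes called under TRi-1, TGACNNNGC was in 28.6% of 21 windows of genes that rose and in 8.11% of 37 windows of genes that fell, and GAANNTTC was in 4.76% of the windows of genes that rose and in 10.8% of those of genes that fell. A match says only that these letters are present.

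The effect of TRi-1 differed from that of auranofin for 3 genes, Hmox1, Srxn1 and Hspb8, all stress genes whose TRi-1 effect was the lower one. The effects share no library: each was taken against the aged untreated ovaries of its own experiment. Of 17484 genes tested in 1 fit of all 27 libraries, 0 (0%) had a higher and 3 (0.0172%) a lower effect of TRi-1 at an edgeR adjusted p of at most 0.05, and 1900 (10.9%) differed at an unadjusted p under 0.05. Doses and times are not in the labels, so the values stand side by side and the experiments differ in more than the compound. Hmox1 showed the widest gap. It had 1099, 478, 392.02 and 873 CPM in the 4 auranofin ovaries and 39.1, 39.7, 38.4, 44.4 and 42.4 CPM in the 5 aged untreated ovaries of experiment 2, a log2 fold change of 4.12 ± 0.36 (edgeR adjusted p = 7.5e-05). With the TRi-1 effect of -0.7 ± 0.37 given above, the difference of effects was -4.81 ± 0.54 (edgeR adjusted p = 3.5e-05), and it was called in all 23 alternatives run.

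Srxn1 had 511, 409, 269 and 198 CPM under auranofin and 66.9, 68.3, 69.9, 68.4 and 49.5 CPM in aged untreated ovaries of experiment 2 (2.42 ± 0.28, edgeR adjusted p = 0.00197), and its difference of effects was -2.62 ± 0.46 (edgeR adjusted p = 0.0316). That call was kept in 11 of 23 alternatives and in 6 of 17 fits that left out 1 library, with values of -2.87 to -2.36. Gclm had 155, 130.05, 121 and 65.4 CPM under auranofin and 24.8, 24.4, 31.4, 25.6 and 23.9 CPM in aged untreated ovaries of experiment 2 (2.18 ± 0.26, edgeR adjusted p = 0.00197). Its difference of effects, -1.93 ± 0.41, did not pass (adjusted p = 0.0896). For Txnrd1 itself the auranofin libraries had 283, 257, 212 and 44.5 CPM and the aged untreated ones 61.7, 43.1, 85.2, 36.1 and 41.2 CPM, and neither the auranofin effect (1.90 ± 0.50, adjusted p = 0.413) nor the difference (-1.47 ± 0.63, adjusted p = 0.391) was called. The median of the 37 NRF2 targets was -0.02 under TRi-1 (0.15 without aged untreated replicate 3 and 0.22 without it and TRi-1 replicate 4) and 0.65 under auranofin. The difference between these medians was not tested.

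Hspb8 (chr5:116408491-116422864), a small heat shock protein that works with BAG3 in selective autophagy of misfolded proteins, was called both in the TRi-1 contrast and in the difference between inhibitors. It had 120.4, 113, 89.4 and 111 CPM under TRi-1 and 269.8, 149, 257 and 263 CPM in aged untreated ovaries of experiment 1, a log2 fold change of -1.11 ± 0.23 (edgeR adjusted p = 0.0467). All TRi-1 libraries were below all untreated ones, and aged untreated replicate 2 was the low untreated library. Under auranofin it had 447, 372, 635 and 491 CPM, against 285, 206, 163, 246 and 305 CPM in aged untreated ovaries of experiment 2, a log2 fold change of 1.01 ± 0.23 that was not called on its own (edgeR adjusted p = 0.356). The difference of effects was -2.13 ± 0.32 (edgeR adjusted p = 0.00327), called in 22 of 23 alternatives. Of 22 cytosolic heat shock protein genes Hspb8 alone was called under TRi-1, where 0.418% of all genes were. Of the 22, 15 were below 0, and the median was -0.24. At an unadjusted p under 0.05, 6 were lower and 0 higher, beside 8.72% and 7.82% of all genes. None of the 67 genes called under TRi-1 was called under auranofin, where 3 genes rose (0.0184% of 16309) and 0 fell; their median auranofin effect was 0.11 for the 28 that rose under TRi-1 and -0.01 for the 39 that fell, against 0.02 over all genes.

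**Figure D4:**
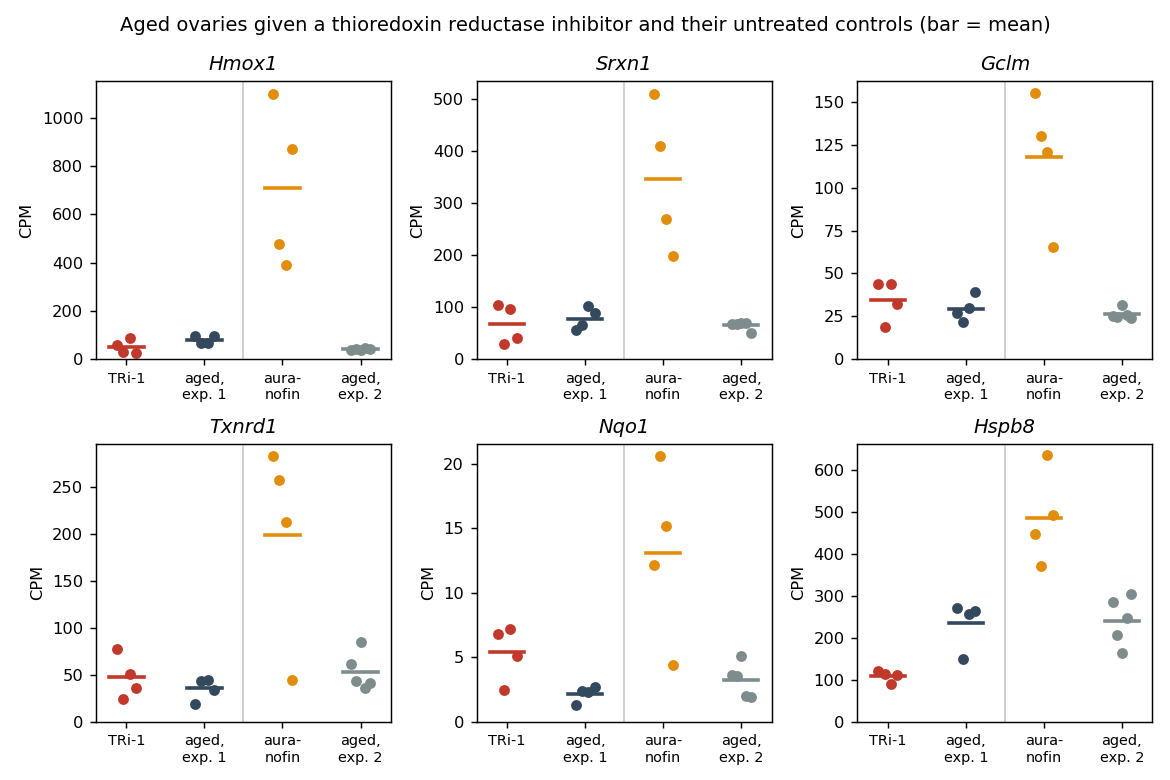
Level in CPM of 6 redox and stress genes in each library (points) and group mean (bars), for TRi-1 and aged untreated ovaries of experiment 1 (left of the line) and auranofin and aged untreated ovaries of experiment 2 (right of it), normalised within each experiment. Hmox1 lies between 25.8 and 85.9 CPM in the TRi-1 ovaries and between 392.02 and 1099 CPM in the auranofin ovaries.

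Senescence and innate immune genes are the subject of the study's title. In the lists of p53 targets, secretory factors and interferon-stimulated genes, Phlda3, given above, was the 1 gene called under TRi-1. The cell cycle inhibitor Cdkn1a (p21) had 21.6, 29.5, 25.5 and 22.7 CPM under TRi-1 and 59.1, 31.9, 39.8 and 37.4 CPM in aged untreated ovaries. The groups did not overlap, but the log2 fold change of -0.76 ± 0.26 did not pass (edgeR adjusted p = 0.164). Cdkn2a, which encodes p16 and ARF, had 8.57, 9.92, 7.28 and 7.65 CPM under TRi-1 and 4.43, 7.53, 4.48 and 7.17 CPM in aged untreated ovaries (0.5 ± 0.36, edgeR adjusted p = 0.524), with overlapping groups. Il1b, the interleukin 1 beta gene, had 16.1, 4.96, 8.72 and 7.25 CPM under TRi-1 and 18.6, 22.2, 86.97 and 35.4 CPM in aged untreated ovaries. All TRi-1 ovaries were below all untreated ones, though TRi-1 replicate 1 came close to the lowest of these. Its log2 fold change was -2.14 ± 0.57 (edgeR adjusted p = 0.0872), and -1.42 without aged untreated replicate 3. Ccl2 had a log2 fold change of -0.51 ± 0.55 and Il6 too few reads for a test, 4 counts over the TRi-1 libraries and 9 over the aged untreated ones. Of 37 tested secretory factors, 23 were below 0. At an unadjusted p under 0.05, 6 were lower and 1 higher, beside 8.72% and 7.82% of all genes. The list median was -0.34, with a range of -0.42 to -0.06 over the alternatives and -0.11 without aged untreated replicate 3.

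Some immune genes lay on the other side of 0. Ccl5, a T cell and macrophage attracting chemokine, had 487, 333, 191 and 159 CPM under TRi-1 and 148, 87.1, 41.2 and 108 CPM in aged untreated ovaries. Each TRi-1 library was above each untreated one, the gap being 159 to 148 CPM (1.61 ± 0.39, edgeR adjusted p = 0.0674). Of 46 interferon-stimulated genes 0 were called and 32 were above 0. At an unadjusted p under 0.05, 7 were higher and 3 lower, beside 7.82% and 8.72% of all genes. The list median was 0.21. That median was -0.07 when the 3 libraries that stand apart were left out and 0.43 without TRi-1 replicate 2. Ifitm3, which restricts virus entry, lay below 0: it had 1549, 989, 1177 and 1027 CPM under TRi-1 and 3823, 2397, 2255 and 3161 CPM in aged untreated ovaries (-1.29 ± 0.27, edgeR adjusted p = 0.0508). Isg15 and Cxcl10 had log2 fold changes of -0.03 ± 0.42 and 0.55 ± 0.60, and Tmem173, which encodes the DNA-sensing adaptor STING, -0.59 ± 0.20 (edgeR adjusted p = 0.165), none of them called. Antigen presentation genes of MHC class I and the immunoproteasome were above 0 in 17 of 20, with 0 called and 3 higher at an unadjusted p under 0.05, a median of 0.3 and 0.13 to 0.44 over the alternatives, the lowest without the 3 libraries that stand apart. Psmb9, an immunoproteasome subunit, had 119, 57.2, 70.9 and 50.3 CPM under TRi-1 and 23.1, 49.7, 24.7 and 42.99 CPM in aged untreated ovaries (1.08 ± 0.30, adjusted p = 0.0939). T cell markers had a median of 0.38 with 0 of 23 called by edgeR (3 higher and 0 lower at an unadjusted p under 0.05), and their mean log2 CPM was 4.18, 3.37, 3.45 and 2.81 in TRi-1 replicates 1 to 4, against 3.09, 3.20, 2.12 and 3.31 in aged untreated replicates 1 to 4. TRi-1 replicate 1 was the highest and aged untreated replicate 3 the lowest, and the median was -0.05 without these 2 and young replicate 5, and 0.7 without TRi-1 replicate 4.

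Macrophage and complement genes were lower in median, with single libraries at the extremes. Of 30 macrophage and monocyte markers edgeR called 0 (1 higher and 5 lower at an unadjusted p under 0.05), 21 were below 0 and the median was -0.35, but -0.01 without TRi-1 replicate 4 and aged untreated replicate 3. Trem2, a lipid-sensing receptor of macrophages, had 28.8, 57.7, 38.3 and 27.8 CPM under TRi-1 and 99.8, 94.7, 130.2 and 66.4 CPM in aged untreated ovaries, without overlap (-1.36 ± 0.35, edgeR adjusted p = 0.0803). Trem2 was the 1 marker of the 30 that lay wholly below the untreated libraries, where 5.05% of all genes tested did. Lysosomal genes followed: 28 of 34 were below 0, 0 were called and the median was -0.28. At an unadjusted p under 0.05, 8 were lower, where 8.72% of all genes were. The list summed to 8255 to 11057 CPM under TRi-1 against 11369 to 17489 CPM in aged untreated ovaries. Its mean log2 CPM overlapped between the groups, at 6.491 to 6.815 under TRi-1 and 6.613 to 7.336 in aged untreated ovaries. The lysosomal median was -0.18 without aged untreated replicate 3 and -0.07 without it and TRi-1 replicate 4. Complement and acute phase genes had a median of -0.66, with 19 of 24 below 0 and 0 called by edgeR. At an unadjusted p under 0.05, 6 were lower, where 8.72% of all genes were. C3, the central complement component, had 4113, 4432, 2494 and 2625 CPM under TRi-1 and 9103, 3590.1, 9269 and 5179 CPM in aged untreated ovaries (-0.99 ± 0.29, edgeR adjusted p = 0.113). The acute phase gene Saa3 had 169, 253, 71.2 and 65.9 CPM under TRi-1 and 446, 939, 1624 and 379 CPM in aged untreated ovaries, without overlap (-2.6 ± 0.74, adjusted p = 0.105). Without aged untreated replicate 3 the complement median was -0.19, and without it and TRi-1 replicate 4 it was 0.0026. That library also had the highest summed level of 33 hepatocyte markers, 5254 CPM against 456 to 823 CPM in the other 3 aged untreated ovaries, and their part in the complement value was not tested.

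Hepatocyte, adipocyte and granulosa markers each had single libraries far from the rest. Albumin (Alb) had 172, 17.7, 8.55 and 3.04 CPM under TRi-1 and 0.333, 85.9, 852 and 23.4 CPM in aged untreated ovaries, and the mean log2 CPM of 29 hepatocyte markers was 4.24, 2.70, 0.67 and 0.26 in TRi-1 replicates 1 to 4, against 0.22, 3.54, 6.30 and 2.24 in aged untreated replicates 1 to 4. All 29 had a log2 fold change below 0, and edgeR called 0. At an unadjusted p under 0.05, 7 were lower, where 8.72% of all genes were. The median of -1.80 became 0.15 without aged untreated replicate 3. Adipocyte and triglyceride genes had a median of -0.84 with 22 of 23 below 0 and Dgat2 alone called, where 0.418% of all genes were. It was -0.17 without aged untreated replicate 3 and 0.04 without that library and TRi-1 replicate 4. Adiponectin (Adipoq) had 387, 240.3, 403 and 49.01 CPM under TRi-1 and 217, 356, 1183 and 402 CPM in aged untreated ovaries. Without those 2 libraries the log2 fold change of Dgat2 was -1.56.

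Over all genes, 7.82% were higher and 8.72% lower at an unadjusted p under 0.05. Granulosa and cumulus cell markers had a median of 0.91, with 16 of 20 above 0, 0 called by edgeR and 8 higher and 1 lower at that threshold. Their mean log2 CPM was 2.67, 2.70, 2.58 and 4.74 in TRi-1 replicates 1 to 4, against 2.64, 2.91, 2.46 and 2.60 in aged untreated replicates 1 to 4, so the difference lay in TRi-1 replicate 4, and the median without it was -0.03. In that library Inhba, the activin subunit, stood at 707 CPM and the other TRi-1 libraries at 3.98 to 8.41 CPM, against 17.96, 19.3, 9.64 and 24.9 CPM in aged untreated ovaries. Cyp19a1, the aromatase gene, had 0, 0.588, 0 and 45.9 CPM under TRi-1 and 0.887, 1.88, 1.61 and 1.56 CPM in aged untreated ovaries. Oocyte genes had a median of 0.88 with 0 of 29 called (3 higher and 1 lower at an unadjusted p under 0.05), and 0.00 without TRi-1 replicate 4. Their levels were near the floor, with a mean log2 CPM of -1.62 to -0.40 under TRi-1 and -1.55 to -1.145 in aged untreated ovaries. Young ovaries, at 2.99 to 3.84, took part in the filter for low genes, so the oocyte median compares very small counts. Foxl2, the granulosa transcription factor that keeps ovarian identity, was more even: it had 10.3, 11.4, 13.04 and 17.3 CPM under TRi-1 and 3.99, 5.18, 2.37 and 6.46 CPM in aged untreated ovaries, without overlap, and did not pass the test (1.53 ± 0.35, edgeR adjusted p = 0.0608). Young ovaries averaged 14.7 ± 5.11 CPM.

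**Figure D5:**
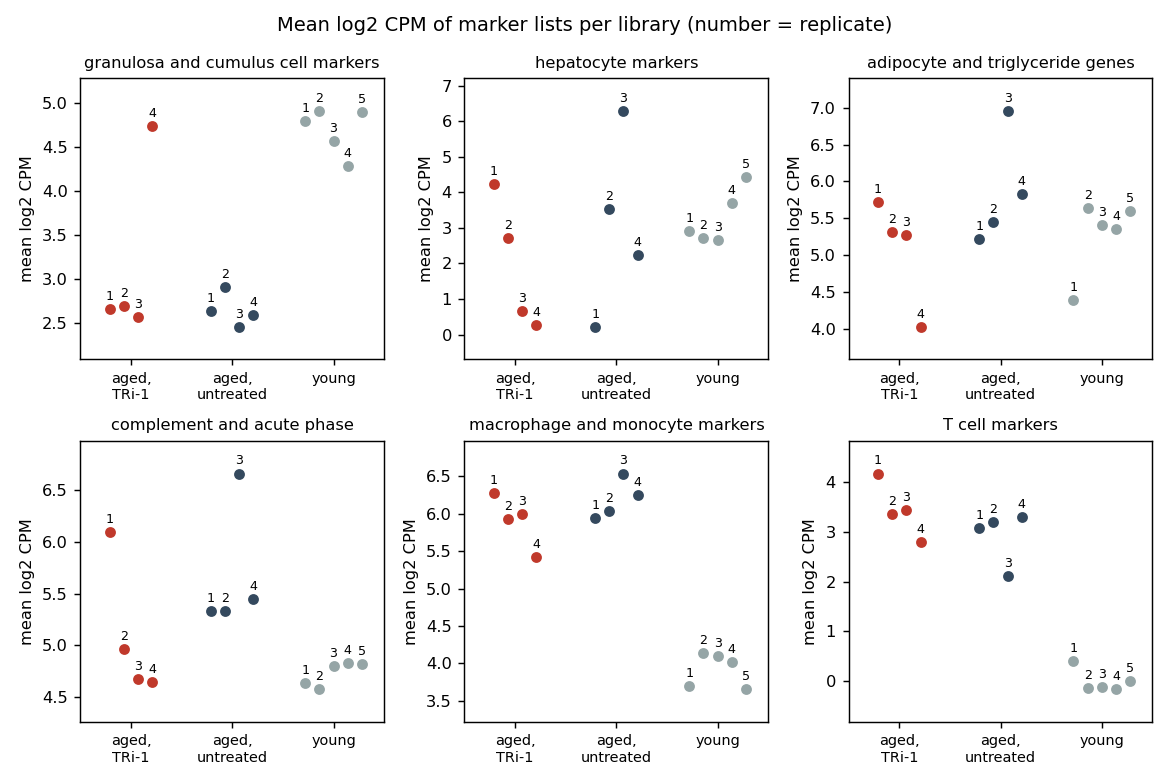
Mean log2 CPM of 6 marker lists in each TRi-1, aged untreated and young untreated ovary of experiment 1, each point numbered by its replicate. Granulosa markers reach 4.74 in TRi-1 replicate 4 and 2.46 to 2.91 in the other 7 aged ovaries, and hepatocyte markers reach 6.30 in aged untreated replicate 3.

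Genes that differ with age were mostly not called, and their medians under TRi-1 lay on the young side of 0. The age genes were taken from experiment 2, whose libraries take no part in the TRi-1 contrast. There, 956 genes (5.86% of 16309) were higher and 749 (4.59%) lower in aged than in young ovaries by edgeR's test. Of the 931 age-raised genes tested here, 3 fell under TRi-1 and 0 rose. The 3 were Fn1, Anxa11 and Flot1. They make up 7.69% of the 39 falls, beside 5.86% age-raised among all genes tested in experiment 2. They are 0.322% of the 931, near the 0.243% of all genes that fell. The 931 genes had a median log2 fold change under TRi-1 of -0.25, with 69.4% below 0, against 50.3% of all genes, and 15.7% were lower at an unadjusted p under 0.05, against 8.72%. Of the 735 age-lowered genes tested, 7 rose and 0 fell, among them Fyn, Itih5 and Tbx3. The 7 make up 25% of the 28 rises, beside 4.59% age-lowered among all genes tested in experiment 2. They are 0.952% of the 735, where 0.175% of all genes rose. The 735 genes had a median of 0.40, with 19.6% below 0, and 26.4% were higher at an unadjusted p under 0.05, against 7.82% of all genes. Young libraries took part in the filter for low genes, so genes near the floor in aged ovaries, such as oocyte genes, could be among the 735. Per TRi-1 library, the median deviation from the aged untreated mean was 0.06, -0.20, -0.18 and -0.59 for age-raised genes and 0.19, 0.19, 0.19 and 0.83 for age-lowered genes in replicates 1 to 4. TRi-1 replicate 4 stood farthest from the untreated mean in both. Without it the medians were -0.11 and 0.21, and without it and aged untreated replicate 3 they were -0.02 and 0.24. After the correction for GC content described next they were -0.20 and 0.30, and after that for GC content and length -0.18 and 0.24. Among the called genes themselves, 25 of the 28 rises had a negative and 28 of the 39 falls a positive age effect in experiment 2, against 51.7% negative and 48.3% positive over the 15512 genes tested in both experiments.

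GC content and transcript length moved with the calls. The last 1000 nucleotides of the annotated transcript, the part read by 3′ tags, had a median GC content of 40.9% in the 28 genes that rose and 53.1% in the 39 that fell, against 45.6% over all genes tested. Median transcript length was 4220 nucleotides for the rises and 2262 for the falls, against 3141 over all. Across all genes the median log2 fold change was 0.27 in genes of up to 30% GC and -0.24 in those of 55% to 60%. Over genes with a mean log2 CPM above 3, the Spearman correlation of GC content with a library's deviation from the mean log2 CPM was -0.02, 0.37, -0.21 and -0.08 in TRi-1 replicates 1 to 4, against 0.36, 0.07, 0.28 and 0.25 in aged untreated replicates 1 to 4 and -0.31 to -0.14 in young ovaries; 3 TRi-1 libraries and all young ones were below 0. With each library's trend on GC removed, edgeR called 28 genes higher and 22 lower, of which 18 and 19 were among the 28 and 39 above. Fn1 (-2.36), Pi16 (-2.19), Dgat2 (-1.94) and Mfap5 (-1.38) remained called after that correction and Nnat (-1.64), Bmp4 (-1.35) and Hspb8 (-1.02) did not. The matrix median was -0.69 after it. Ribosomal protein genes, which are short, had a median of -0.17 with 0 of 87 called by edgeR. At an unadjusted p under 0.05, 1 was higher and 24 lower, beside 7.82% and 8.72% of all genes. Under TRi-1, 26 lay wholly below the untreated libraries and 2 wholly above, beside 5.05% and 4.17% of all genes. The ribosomal median was -0.06 after a correction for length, -0.10 after that for GC content and -0.08 after both. Without aged untreated replicate 1 it was -0.21. The part of length was not tested.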

How the data were processed

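The deposited table holds whole-number counts for 27 libraries and 51789 gene IDs, made by the authors; 51596 IDs were given a symbol from GENCODE M21. RSEM 1.2.3, DESeq2 and the build mm10 appear in the submitters' processing notes, with no role stated. Annotation and strand setting are not given in the sources used here, so overlapping genes and pseudogenes are uncertain. No 2 libraries within a group were copies (chi-square per gene 21.9 to 105). From these counts, edgeR 4.0.16 (R 4.3.3) filtered low genes with filterByExpr, scaled by TMM and fitted quasi-likelihood models with 1 mean per group to the 13 libraries of experiment 1; the contrast was TRi-1 minus aged untreated. A fit of all 27 libraries gave the difference from the auranofin effect. Standard errors are the size of the log2 fold change over the square root of F, log2 CPM used a prior count of 2, and adjusted p-values are Benjamini-Hochberg over all genes tested, threshold 0.05. The scripts were tested on simulated data. Lists are described by counts and medians, without a test. Genes named were the 10 largest called rises and falls that averaged 5 CPM or more and did not overlap, leaving out provisional names (Gm numbers, Rik and clone names), up to 3 called members of lists with at least 2, up to 5 genes per direction of the difference, and a fixed set of redox, senescence and inflammation genes; other genes serve as examples of their lists or were named after their values were seen. Members and lists were chosen with earlier results of these data known. Alternatives were RLE factors, DESeq2 1.42.0, voom with quality weights (limma 3.58.1), other filters, fewer or more libraries, a replicate block, each library left out, and haemoglobin genes left out. Corrections for GC content and length removed each library's trend over the last 1000 nucleotides or the transcript length (lowess span 0.3). Promoter windows are RefSeq's (GRCm38.p6). Plots used Python 3.11.15 and matplotlib 3.10.9.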

Additional observations from a re-analysis of the deposited data

Results flagged for a closer look

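In 190 sets of 4 libraries (named genes, list means and composition, each within TRi-1 or within aged untreated ovaries), 13 had a library far from the other 3, where chance gives about 1 in 20 such groups. The value given is the gap to the nearest library over the whole range of the group. In TRi-1 replicate 4, Zfp131 (gap 0.962, 5.22 against 4.47 log2 CPM), granulosa and cumulus cell markers (0.945, 4.74 against 2.70) and oviduct and uterine epithelium markers (0.872, 5.69 against 4.98) were above the other TRi-1 ovaries. Tmem173 was above them in TRi-1 replicate 1 (0.894, 6.23 against 5.56). TRi-1 replicate 2 was below the others for red blood cell genes (0.859, 7.08 against 8.80), ribosomal protein genes (0.848, 9.984 against 10.04) and the share of haemoglobin counts (0.844, 4.5% against 10.8%).

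Among aged untreated ovaries, replicate 3 was above the others for Dgat2 (0.888, 6 against 5.08) and complement and acute phase genes (0.912, 6.66 against 5.44), and below them for high endothelial venule and lymphoid tissue genes (0.929, 3.09 against 4.11). Replicate 2 was below the others for Hspb8 (0.916, 7.23 against 8.01). Dendritic cell markers were higher in replicate 4 (0.831, 3.26 against 2.98) and kidney epithelium markers in replicate 1 (0.837, 1.04 against 0.47).

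The effects of TRi-1 and auranofin differed, by edgeR's test of the difference itself, for Hmox1 (-4.81, adjusted p = 3.5e-05), Hspb8 (-2.13, adjusted p = 0.00327) and Srxn1 (-2.62, adjusted p = 0.0316), as the TRi-1 effect minus the auranofin effect on the log2 scale. All 4 auranofin libraries were above all aged untreated ones of their experiment for each of the 3 genes.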

How the results depend on the processing

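All 67 called genes kept their sign in every alternative that gave them a value, and the calls themselves did not hold up: leaving out 1 library gave 0 to 53 higher and 0 to 111 lower genes, with 0 in edgeR's test without TRi-1 replicate 1, TRi-1 replicate 4 or aged untreated replicate 3. DESeq2 called 280 higher and 307 lower, voom 24 and 73, no filter 68 and 99, and a filter at 5 CPM 71 and 101. RLE factors gave 33 and 40, and leaving out haemoglobin genes 34 and 55. In edgeR's test, only the 8 aged libraries gave 0 and 0 (2317 genes at an unadjusted p under 0.05), all 27 libraries 2 and 0 (2168), and the 3 libraries that stand apart left out 0 and 0 (1802). Chosen after seeing the data was leaving out TRi-1 replicate 4 with aged untreated replicate 3 (0 and 0, with 1862). So were the corrections for GC content (28 and 22), length (16 and 17) and both (24 and 17). Of the calls, 28 of 67 were higher with all 13 libraries, and 24.7% by voom, 56% after the GC correction and 58.5% after both. The difference from auranofin, 0 higher and 3 lower genes, came to 49 and 44 by DESeq2, 1 and 4 at 5 CPM, 2 and 6 after the GC correction, and 0 to 4 and 2 to 6 with 1 library left out. Fixed genes that were not called changed sign: Txn1 was 0.046 and Srxn1 0.17 without TRi-1 replicate 4 and aged untreated replicate 3, and Slc7a11 was 0.36 there and 0.41 without the 3 libraries that stand apart, where Cxcl10 was -0.18. The log2 fold change of Isg15 under TRi-1 was 0.0034 with 27 libraries and 0.17, 0.10 and 0.14 after the corrections for GC, length and both. With 1 library left out, Txn1 ran from -0.51 to 0.19, Srxn1 from -0.46 to 0.074, Slc7a11 from -1.03 to 0.29 and Isg15 from -0.28 to 0.33. The causes were not tested.

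Same-numbered TRi-1 and aged untreated libraries did not deviate together (r = -0.15, -0.31, 0.09 and -0.02 for numbers 1 to 4). No TRi-1 library correlated best with its own number. The labels do not say whether the numbers pair samples, and 4 correlations cannot exclude it. With the replicate number as a block, edgeR called 1 higher and 0 lower genes over 13 libraries (2053 at an unadjusted p under 0.05) and 0 and 0 over the 8 aged ones (1696), and a block by experiment left 0 and 1 for the difference from auranofin. Txn1 was 0.016 and 0.086 under the block in 13 and 8 libraries. Depth of 9183605 counts or more per aged library leaves low genes such as Il6 and Figla without a test.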

Other observations

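Lists not described above held no called gene in edgeR's test, with these medians under TRi-1 beside -0.003 over all genes; at an unadjusted p under 0.05, 1 cholesterol gene was higher and 5 lower, 4 steroid genes were higher and 3 lower, and 1 ATF4 gene was higher and 4 lower. Cholesterol synthesis and uptake genes had a median of -0.36 with 23 of 27 below 0, and 0.12 without aged untreated replicate 3. Steroid hormone synthesis genes had a median of 0.43 with 12 of 19 above 0, and 0.08 without TRi-1 replicate 4. Genes of the ATF4 integrated stress response had a median of -0.43 with 17 of 23 below 0, and -0.16 without aged untreated replicate 3, while endoplasmic reticulum chaperones had -0.04 with 11 of 21 below 0, and 0.13 without aged untreated replicate 3 and TRi-1 replicate 4.

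Neutrophil markers had a median of -0.60 with 11 of 12 below 0 and 0 genes at an unadjusted p under 0.05. That median was -0.34 without aged untreated replicate 3 and -0.24 without TRi-1 replicate 1, aged untreated replicate 3 and young replicate 5. CC and CXC chemokines had a median of -0.19, with 2 of 28 higher and 7 lower at an unadjusted p under 0.05, beside 7.82% and 8.72% of all genes. NF-kB subunits and feedback genes had -0.08. B cell and plasma cell markers had -0.01, with 15 of 30 on either side of 0. Without those 3 libraries the medians were -0.39 for chemokines, -0.13 for NF-kB genes and -0.35 for B cell markers. Over all libraries proliferation genes had 0.19 with 22 of 36 above 0. Pdpn, which encodes podoplanin, had 334, 375, 336 and 335 CPM under TRi-1 and 813, 465, 548 and 531 CPM in aged untreated ovaries, without overlap (log2 fold change -0.77 ± 0.22 SE, edgeR adjusted p = 0.0986).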
